A study of Eonycteris spelaea and Mus musculus with 51 samples.

Results

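HSP90 co-chaperones are the proteins that load the chaperone HSP90 with its client proteins and pace its work. Transcripts of 8 of them (Ahsa1, Ahsa2, Chordc1, Cacybp, Ptges3, Stip1, Fkbp4 and St13) were followed in 2 mammals, the cave nectar bat Eonycteris spelaea and the mouse. The members were chosen by symbol in the mouse and by matched identifier in the bat, 8 of 40840 rows in the mouse table and 8 of 30017 rows in the bat table. The choice was made with earlier results of these data known. Shares of called members set against all genes therefore describe these 8 and do not test the family. The bat rows carry human Ensembl gene identifiers, ENSG00000100591 (Ahsa1), ENSG00000110172 (Chordc1), ENSG00000116161 (Cacybp), ENSG00000110958 (Ptges3), ENSG00000168439 (Stip1), ENSG00000004478 (Fkbp4) and ENSG00000100380 (St13), except for Ahsa2, whose row carries the mouse identifier ENSMUSG00000020288. All 8 passed the filter on low counts in every tissue of both species.

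HSP90 is an ATP-driven molecular clamp that completes the folding of kinases, steroid hormone receptors and other client proteins. Clients reach it from HSP70, and each stage of its cycle is set by a co-chaperone that comes and goes. Heat unfolds proteins, and in mammals the heat shock factor HSF1 then switches on chaperone and co-chaperone genes. Among the members, Ahsa1 binds HSP90 and speeds its ATP hydrolysis, and Ahsa2 is its paralogue. Ptges3, also called p23, holds the closed, ATP-bound clamp. Chordc1 and Cacybp carry a CS domain of the same fold as Ptges3, and Cacybp also binds ubiquitin ligase components. Stip1, also called HOP, bridges HSP70 and HSP90 through TPR repeats. Fkbp4 is a TPR-containing prolyl isomerase of steroid receptor complexes, and St13, also called HIP, steadies HSP70 in its substrate-holding state.

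Blood, lung and muscle were each profiled by bulk RNA sequencing. In each species, heat animals were sampled directly after a 1 h heat shock of the living animal, recovery animals 4 h after the end of such a shock, and control animals at baseline without treatment. Groups had 3 libraries, or 2 in mouse blood. The sources used here give no strain, age or sex, nor do they state which libraries came from the same animal, so p-values measure the spread between libraries. No untreated group was taken at the later times, so heat cannot be told apart from handling or elapsed time. Total counts were 9287883 to 33272414 per library in the bat and 17092519 to 54493918 in the mouse. In the mouse the labelled tissues carried their markers: summed lung markers were 14612 to 17016 CPM in lung and at most 4.73 CPM elsewhere, and summed muscle markers were 170200 to 321660 CPM in muscle, 589.5 to 3294 CPM in lung and at most 2.71 CPM in blood. The lung values included 3294, 589.5 and 686 CPM in control lungs 1, 2 and 3. Bat markers were not checked, because most bat rows are not paired with gene names.

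Before any heat, most of the co-chaperones were more abundant in muscle than in lung or blood, in both species. Levels are given as counts-per-million (CPM) with TMM (trimmed mean of M values) scaling, and a member was called higher or lower at a Benjamini-Hochberg adjusted p under 0.05 in edgeR's quasi-likelihood test over all genes. In control bats 5 of the 8 members were lower in lung than in muscle (20.4% of all genes tested were), 6 were lower in blood than in muscle (34.0% of all genes), and 3 were lower and 1 higher in blood than in lung (32.9% of all genes lower). In control mice 7 members were lower in lung than in muscle (29.8% of all genes), 8 were lower in blood than in muscle (39.7%), and 3 were lower in blood than in lung (35.2%). The CS-domain gene Cacybp shows the muscle excess: bat lung held 69.2, 70.6 and 61.9 CPM and bat blood 60.9, 57.2 and 78.3 CPM, against 179.6, 214 and 196 CPM in bat muscle. Every muscle library thus lay above every library of the other tissues, and the lung to muscle change was -1.55 ± 0.22 on the log2 scale (SE, edgeR adjusted p = 0.00019). In control mice Cacybp held 13.5, 14.6 and 14.3 CPM in lung, against 29.7, 29.2 and 37.8 CPM in muscle (log2 -1.19 ± 0.14, edgeR adjusted p = 0.000123). Ptges3 was not called between lung and muscle, at -0.10 ± 0.15 in mouse lung against muscle (edgeR adjusted p = 0.603) and 0.27 ± 0.24 in bat lung against muscle (edgeR adjusted p = 0.353). Ahsa1 was the member higher in bat blood than in bat lung (log2 0.89 ± 0.27, edgeR adjusted p = 0.0156), with 105, 123 and 173 CPM in blood and 86.5, 73.8 and 55.99 CPM in lung. The median change of all genes between bat lung and bat muscle was 0.54 and between bat blood and bat lung -0.29 on the log2 scale, so these contrasts depend on how the tissues are scaled. The calls in bat blood against muscle numbered 3 without blood control 2 or without muscle control 3.

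**Figure D1:**
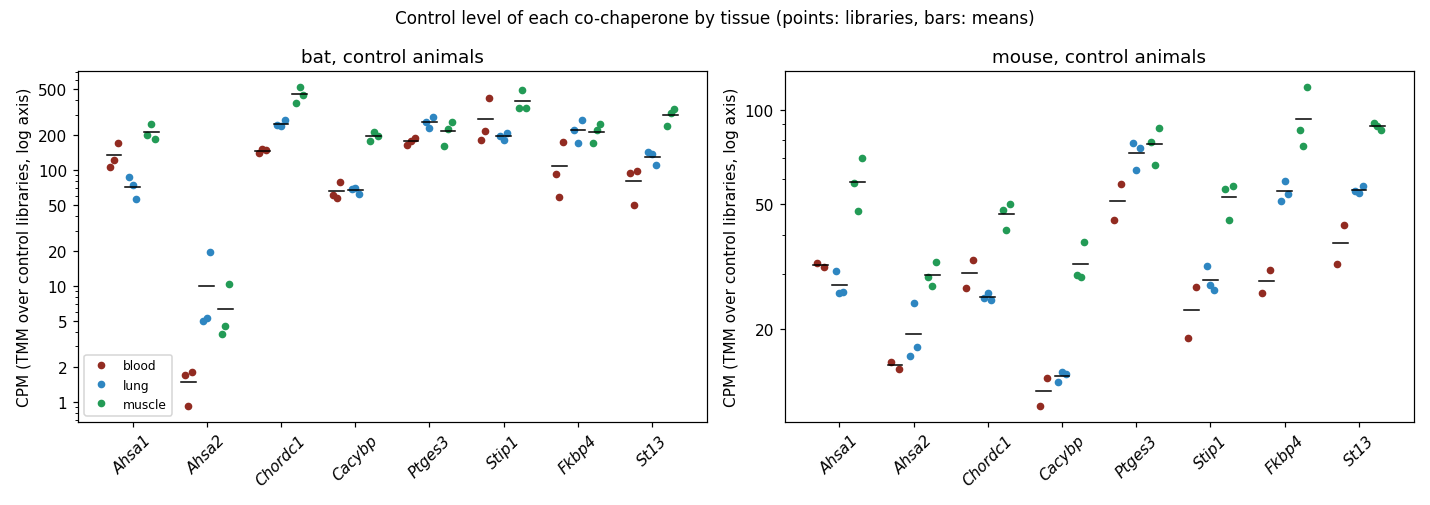
Levels of the 8 co-chaperones in control animals, bat at left and mouse at right, with a log axis in CPM scaled over the control libraries of each species; points are libraries and bars are means for blood, lung and muscle. Heights of different genes are not comparable because CPM is not divided by gene length. The muscle points lie highest for Cacybp, Chordc1 and St13 in both species.

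Levels of different genes were compared only in the mouse, per kilobase of all annotated exons joined. This length need not be that of the transcripts present, so the order of genes depends on it. Per kilobase, Ptges3 and Fkbp4 were the most abundant members in control lung, at 55.7 and 33.4 CPM per kb, and Chordc1 and Ahsa2 the least, at 5.73 and 7.25. After heat the order in lung changed, with Stip1 first at 108 CPM per kb, Ptges3 at 93.8, Fkbp4 at 78.1 and Ahsa2 at 44.97, while St13 was last at 17.9. Before division by length, heat lungs averaged 227 CPM of Stip1 and 184 CPM of St13. Their joined exons are 2.108 kb and 10.305 kb long. In control blood, scaled apart from lung and so not set against it, levels ran from 1.56 (Ahsa2) to 10.7 CPM per kb (Ptges3).

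To determine how heat shock moved the co-chaperones, heat libraries were compared with control libraries in each tissue. In mouse lung all 8 members rose, against 3.14% of the 19438 genes tested, and in none did the groups overlap (12.7% of all genes had every heat library above every control library). Stip1, the bridge between HSP70 and HSP90, held 203, 136 and 341 CPM in heat lungs, against 54.0, 47.1 and 44.9 CPM in control lungs. All heat libraries were thus well above all controls, although they differed widely among themselves, and the log2 change was 2.22 ± 0.31 (SE, edgeR adjusted p = 0.0136). Ahsa2 changed most, with 248, 116 and 247 CPM in heat lungs, against 28.0, 41.1 and 29.5 CPM in control lungs (log2 2.64 ± 0.30, edgeR adjusted p = 0.0071). Its paralogue Ahsa1 held 119.9, 90.4 and 169 CPM in heat lungs, against 52.4, 44.4 and 44.2 CPM in control lungs (log2 1.43 ± 0.19, edgeR adjusted p = 0.00657). The Ahsa pair thus both rose, Ahsa2 from a lower control level per kilobase. The CS-domain genes rose by unequal amounts. Chordc1 held 194, 107 and 178 CPM in heat lungs, against 42.7, 44.4 and 41.7 CPM in control lungs (log2 1.90 ± 0.18, edgeR adjusted p = 0.00173), and Cacybp rose by 1.95 ± 0.24 (edgeR adjusted p = 0.00657). Ptges3 rose least, with 231, 182 and 211 CPM in heat lungs, against 134, 109 and 127 CPM in control lungs (log2 0.75 ± 0.11, edgeR adjusted p = 0.00657). Of the other TPR genes, Fkbp4 rose by 1.23 ± 0.18 (edgeR adjusted p = 0.00984) and St13 by 0.97 ± 0.10 (edgeR adjusted p = 0.000805). Summed leukocyte markers were 165 to 252 CPM in heat lungs, against 253 to 276 CPM in control lungs, so these groups lay apart, and their part in the changes was not tested. In bulk tissue, fewer cells of a type and less RNA per cell cannot be told apart. Fkbp4 and Stip1 lost their calls without lung control 1 (edgeR adjusted p = 0.0522 and 0.0538) or lung control 3 (edgeR adjusted p = 0.0557 and 0.0664), and the other 6 kept theirs under every alternative tried.

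In mouse muscle 3 members rose (0.293% of 17746 genes did), and all 8 again had every heat library above every control library (16.1% of all genes). Ahsa2 held 131, 90.8 and 153 CPM in heat muscle, against 22.2, 20.4 and 23.8 CPM in control muscle (log2 2.49 ± 0.26, edgeR adjusted p = 0.0178). Stip1 held 136, 114 and 181 CPM in heat muscle, against 42.7, 33.1 and 41.9 CPM in control muscle (log2 1.87 ± 0.26, edgeR adjusted p = 0.0312). Chordc1 rose by 1.55 ± 0.22 (edgeR adjusted p = 0.0352). The other 5 members had log2 changes of 0.89 (St13) to 1.75 (Cacybp) with edgeR adjusted p of 0.0606 to 0.0862. Each had an unadjusted p under 0.05, and DESeq2 called all 8. Here and below, shares of called genes are given for the main edgeR fit only. Counts by DESeq2, by unadjusted p or with libraries left out therefore have no share of all genes beside them. The count of 3 called by edgeR was 0 without muscle control 1, control 2 or heat 1, 1 without heat 3, and 8 without recovery 1. Summed leukocyte markers were 3.23 to 16.6 CPM in heat muscle, 6.0 to 263 CPM in recovery muscle and 41.0 to 156 CPM in control muscle. Summed muscle markers were 291100 to 321660 CPM in heat muscle, 173800 to 305280 CPM in recovery muscle and 170200 to 287940 CPM in control muscle. Heat and control muscle thus lay apart in both lists, and the part of either in these changes was not tested.

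In mouse blood the 2 heat libraries held more of every co-chaperone than either control library (20.5% of all genes had every heat library above every control). Ahsa2 held 96.6 and 49.7 CPM in heat blood, against 7.33 and 6.86 CPM in control blood, a log2 difference of 3.37 ± 0.33 (edgeR adjusted p = 0.0800). Stip1 held 87.1 and 51.3 CPM in heat blood, against 8.76 and 12.5 CPM in control blood (log2 2.7 ± 0.30, edgeR adjusted p = 0.0800). Cacybp held 39.6 and 24.6 CPM in heat blood, against 5.33 and 6.39 CPM in control blood (log2 2.45 ± 0.25, edgeR adjusted p = 0.0800). These were the biggest log2 differences of the 3 genes in any mouse tissue, yet edgeR called none of the 8 members and 0.0% of 15869 genes at this size. All 8 had an unadjusted p under 0.05 and DESeq2 called all 8, again with no share of all genes to set beside these counts. Without blood heat 2, which leaves 1 heat library, the log2 differences ran from 1.60 to 3.77. Summed erythroid markers were 368640 to 902780 CPM in heat blood and 398740 to 570760 CPM in control blood, and their part in these values was not tested.

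**Figure D2:**
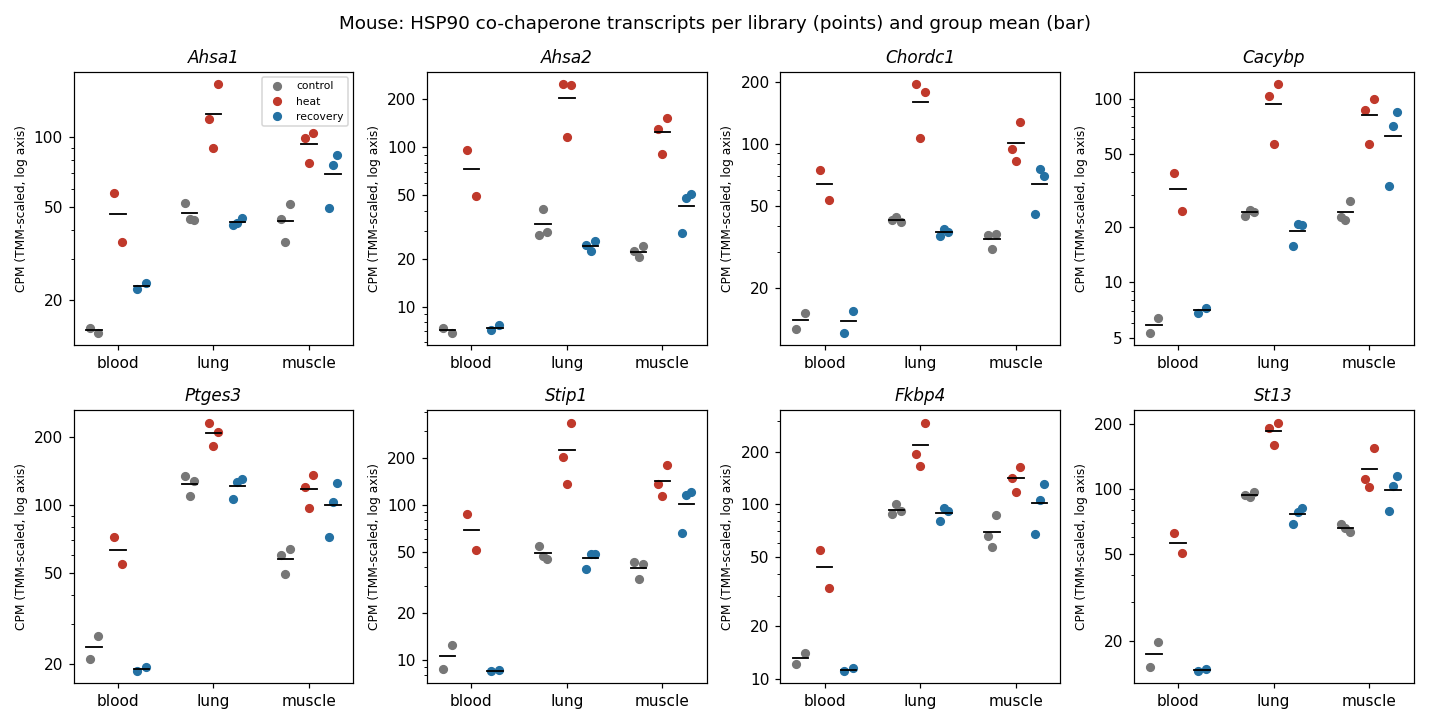
Level of each co-chaperone in every mouse library, in CPM on a log axis, for control, heat and recovery in blood, lung and muscle; points are libraries and bars are group means. In each tissue all heat points lie above all control points for all 8 genes, and recovery points are back near the controls in blood and lung but average between control and heat in muscle.

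Ahsa2 needs a caution on its identity in the mouse. In the GENCODE M21 annotation (GRCm38) it lies on chromosome 11 and shares exonic bases with a pair of counted genes on the opposite strand, 2137 with Usp34, a deubiquitinase gene, and 137 with the transcript 1700030C12Rik. No strand setting of the counting is given here, so their reads may not have been told apart. Usp34 itself had log2 changes of 0.25 in blood, 0.20 in lung and 0.33 in muscle after heat, none called by edgeR, and fell in recovery against heat lung (log2 -0.27, edgeR adjusted p = 0.0296). The low transcript 1700030C12Rik, at a mean of 2.47 CPM in heat lungs and 0.537 CPM in control lungs, rose in heat lung (log2 2.17, edgeR adjusted p = 0.0208) and fell in recovery against heat lung (log2 -3.23, edgeR adjusted p = 0.00368). The other 7 members share no counted exon with another gene in that annotation and lie on chromosomes 12 (Ahsa1), 9 (Chordc1), 1 (Cacybp), 10 (Ptges3), 19 (Stip1), 6 (Fkbp4) and 15 (St13). Ptges3 has a processed copy, Ptges3-ps, whose counts also rose in heat lung (log2 0.66, edgeR adjusted p = 0.0189), so the reads of this pair may be split.

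In the bat, none of the 8 members was called in heat against control in any tissue, where 0.0% of 16038 genes in blood, 0.0% of 19149 in lung and 0.0% of 15950 in muscle were called higher by edgeR. DESeq2 also called 0 members in each tissue, and unadjusted p was under 0.05 for 2 members in blood, 1 in lung and 0 in muscle. Chordc1 held 232, 755 and 378 CPM in heat blood, against 142, 163 and 151 CPM in control blood, so all heat libraries lay above the controls, with a log2 difference of 1.58 ± 0.50 (edgeR adjusted p = 1). Stip1 held 165, 777 and 639 CPM in heat blood, against 185, 234 and 423 CPM in control blood, and the groups overlapped. In blood the log2 differences of the 8 members ran from 0.61 (Ptges3) to 1.58, with a median of 0.91, and 3 members (Chordc1, Cacybp and Ahsa2) had groups that did not overlap (4.98% of all genes were higher in this way).

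Bat lung and muscle showed smaller differences. In lung, Stip1 held 195, 461 and 422 CPM in heat animals, against 312, 288 and 369.8 CPM in control animals (log2 0.15 ± 0.28, edgeR adjusted p = 0.882). Cacybp held 81.0, 201 and 163 CPM in heat lungs, against 109.6, 113 and 109 CPM in control lungs (log2 0.42 ± 0.26, edgeR adjusted p = 0.642). In both genes the first heat library lay below all controls and the other two above them. The exception was St13, whose heat lungs (234, 324 and 300.5 CPM) all lay above the control lungs (225, 222 and 194 CPM), the 1 member of 8 with groups apart (5.01% of all genes). Over the 8 members the median log2 difference was 0.36 in lung and 0.24 in muscle, and in muscle all 8 members had overlapping groups (13.3% of all genes had every heat library higher). For Stip1 the nominal 95% interval of the log2 difference was -0.39 to 0.70 in lung and -0.43 to 0.68 in muscle. For Chordc1 it was -0.21 to 0.82 and -0.29 to 0.76. These intervals use the SE with a normal curve and are narrower than edgeR's test allows. For Ahsa1 in bat lung such an interval was 0.006 to 0.843, although the unadjusted p of edgeR was 0.0758.

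**Figure D3:**
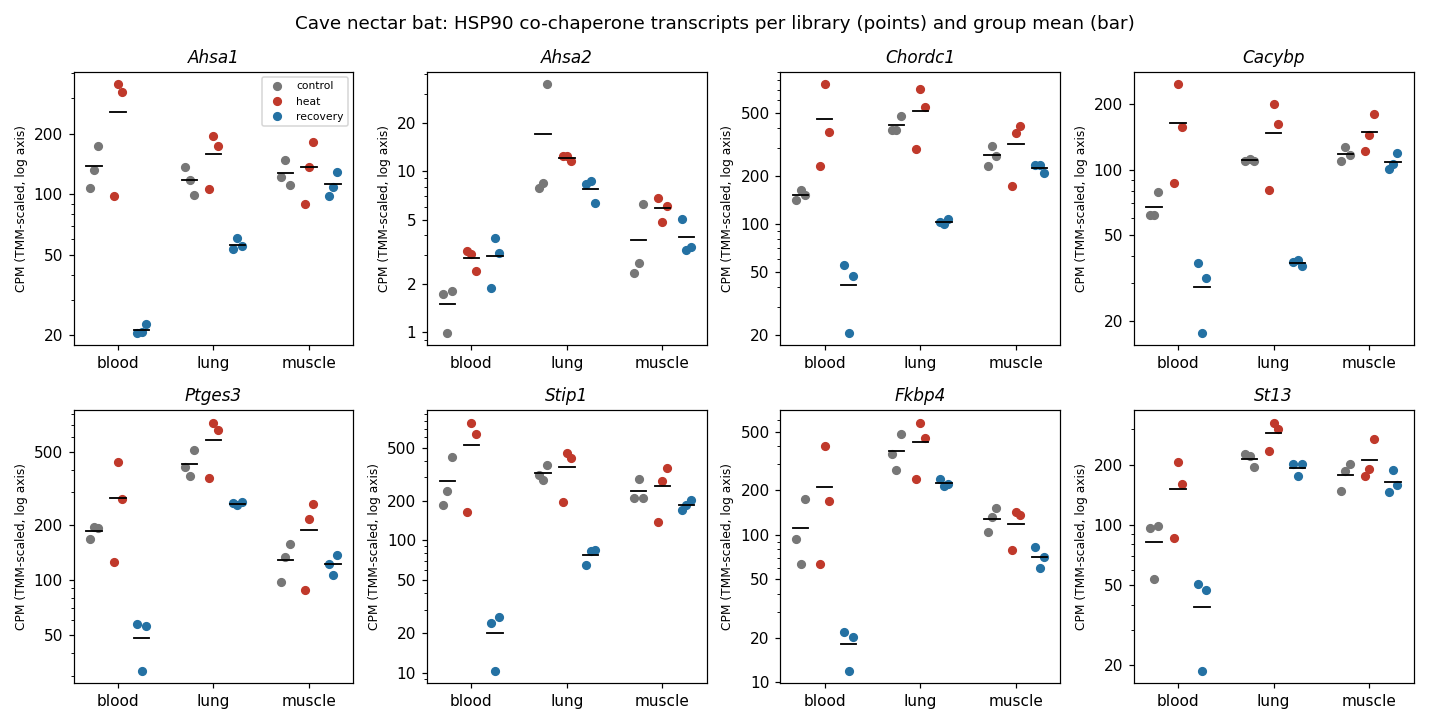
Level of each co-chaperone in every bat library, in CPM on a log axis, drawn as in the mouse plot. In each tissue heat library 1, the leftmost heat point, is the lowest of its group for every gene but Ahsa2, and the recovery points in blood and lung lie below the controls for Ahsa1, Chordc1, Cacybp, Ptges3, Stip1 and Fkbp4.

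Ahsa2 stood apart from the other members in the bat. It was the least abundant row, with 14 to 81 reads per blood library and 0.995 to 3.85 CPM there. In bat lung, control library 3, which had the lowest total count of all, held 34.5 CPM of it, against 7.88 and 8.46 CPM in the other two controls. Its heat lungs held 12.4, 12.4 and 11.5 CPM, and its log2 difference of -0.47 turned to 0.57 without that control. Its values in bat lung therefore rest on 1 library.

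One library of each heat group was low for most members in both species. Libraries of the same number may come from 1 animal, so the tissues need not be independent here. Bat heat 1 was the lowest heat library for 7 of the 8 members in blood, in lung and in muscle, with Ahsa2 as the exception each time. Relative to the control mean, the members' median log2 level was -0.22 in bat blood heat 1, against 1.41 and 1.07 in heat 2 and 3, and it was -0.45 in bat lung heat 1, against 0.69 and 0.44 in heat 2 and 3. In bat muscle it was -0.53 in heat 1, against 0.27 and 0.60 in heat 2 and 3. Mouse heat 2 was likewise the lowest heat library for all 8 members in all 3 tissues, but it stayed above the controls, with a median of 1.74 in blood, 1.09 in lung and 1.03 in muscle. The inducible HSP70 genes Hspa1a and Hspa1b, summed as a gauge of the heat shock response in the mouse, ranked the lung libraries alike, at 3427, 496 and 13861 CPM in heat lungs 1, 2 and 3, against 21.9 to 61.1 CPM in control lungs. Without bat heat 1 the members' median log2 difference between heat and control was 1.31 in blood, 0.57 in lung and 0.43 in muscle, and edgeR still called 0 members in each (smallest adjusted p 1, 0.675 and 0.176).

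**Figure D4:**
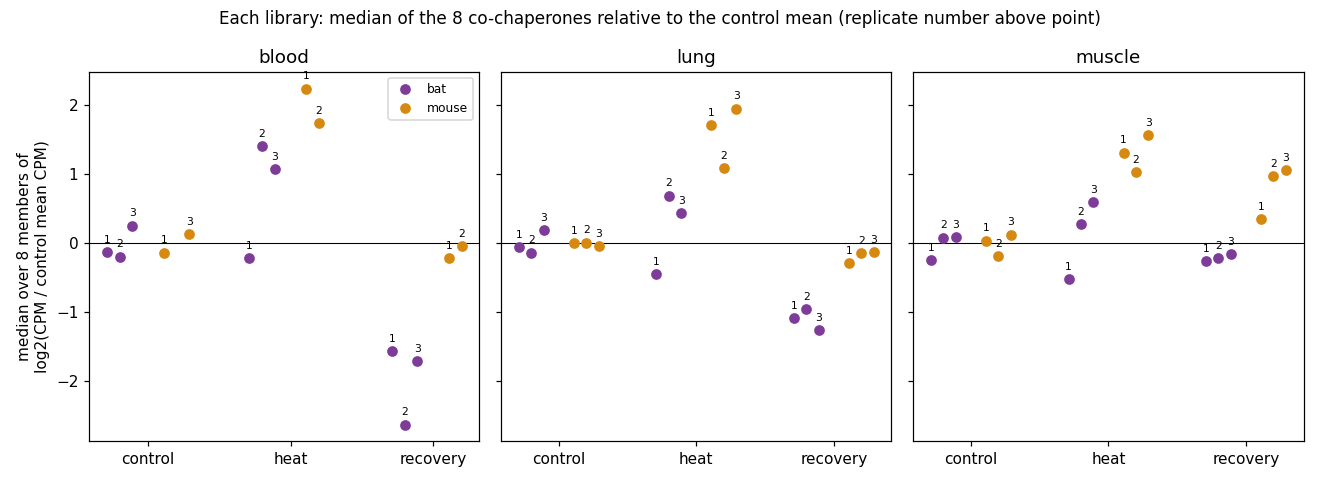
Median over the 8 co-chaperones of the log2 ratio of each library to the control mean, by condition, bat left of mouse, with the replicate number above each point. Bat heat 1 lies below 0 in all 3 tissues, mouse heat libraries all lie above 1, and bat recovery libraries lie below 0 in every tissue.

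To determine whether the species differed, the bat change was set against the mouse change in a joint fit of the genes paired between the tables (83 in lung, 52 in muscle and 64 in blood). Adjusted p was taken over these paired genes alone, so calls here are not at the threshold of calls over all genes. In lung 4 members responded less in the bat than in the mouse (7.23% of the paired genes did, 6 genes of which these are 4). The bat minus mouse difference of the log2 change was -3.10 ± 0.61 for Ahsa2 (edgeR adjusted p = 0.00682), -2.07 ± 0.44 for Stip1 (edgeR adjusted p = 0.0088), -1.59 ± 0.38 for Chordc1 (edgeR adjusted p = 0.0149) and -1.53 ± 0.40 for Cacybp (edgeR adjusted p = 0.0229). Ptges3 differed by -0.32 ± 0.33, with a nominal 95% interval of -0.96 to 0.32. In muscle the same 4 members differed (9.62% of the paired genes were called lower, 5 genes of which these are 4). The difference was -1.85 ± 0.51 for Ahsa2 (edgeR adjusted p = 0.0231) and -1.75 ± 0.42 for Stip1 (edgeR adjusted p = 0.0198). It was -1.42 ± 0.42 for Cacybp and -1.31 ± 0.39 for Chordc1 (edgeR adjusted p = 0.0278 for each). In blood no member was called by edgeR (0.0% of the paired genes), with differences of -0.61 to -2.44, 1 unadjusted p under 0.05 and 1 member called lower by DESeq2.

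These species differences leaned on single libraries to different degrees. Without bat heat 1 the lung differences of Ahsa2 (-3.11), Stip1 (-1.77), Chordc1 (-1.31) and Cacybp (-1.23) were all still called, and in muscle Ahsa2 (-1.98) and Stip1 (-1.46) were, while Chordc1 (-1.03, edgeR adjusted p = 0.0506) and Cacybp (-1.31, edgeR adjusted p = 0.0600) were not. The lung count of 4 was 2 without mouse lung control 3 or heat 1, 3 without mouse lung control 1 or heat 3, 5 without mouse lung heat 2 and 6 without bat lung heat 2. The muscle count of 4 was 0 without mouse muscle control 1, control 2 or heat 3, 1 without bat muscle control 3 or heat 2, 2 without bat muscle control 2, 3 without mouse muscle heat 1, and 5 or 6 without bat control 1, bat heat 3, mouse control 3 or mouse recovery 1. Ahsa2 in this contrast compares a low bat row with a mouse row that overlaps Usp34 and 1700030C12Rik, and the part of either in the difference was not tested. In lung the size of its difference also rests on bat control 3, without which the bat change turned from -0.47 to 0.57. The lung call of Ahsa2 was kept under every alternative tried.

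**Figure D5:**
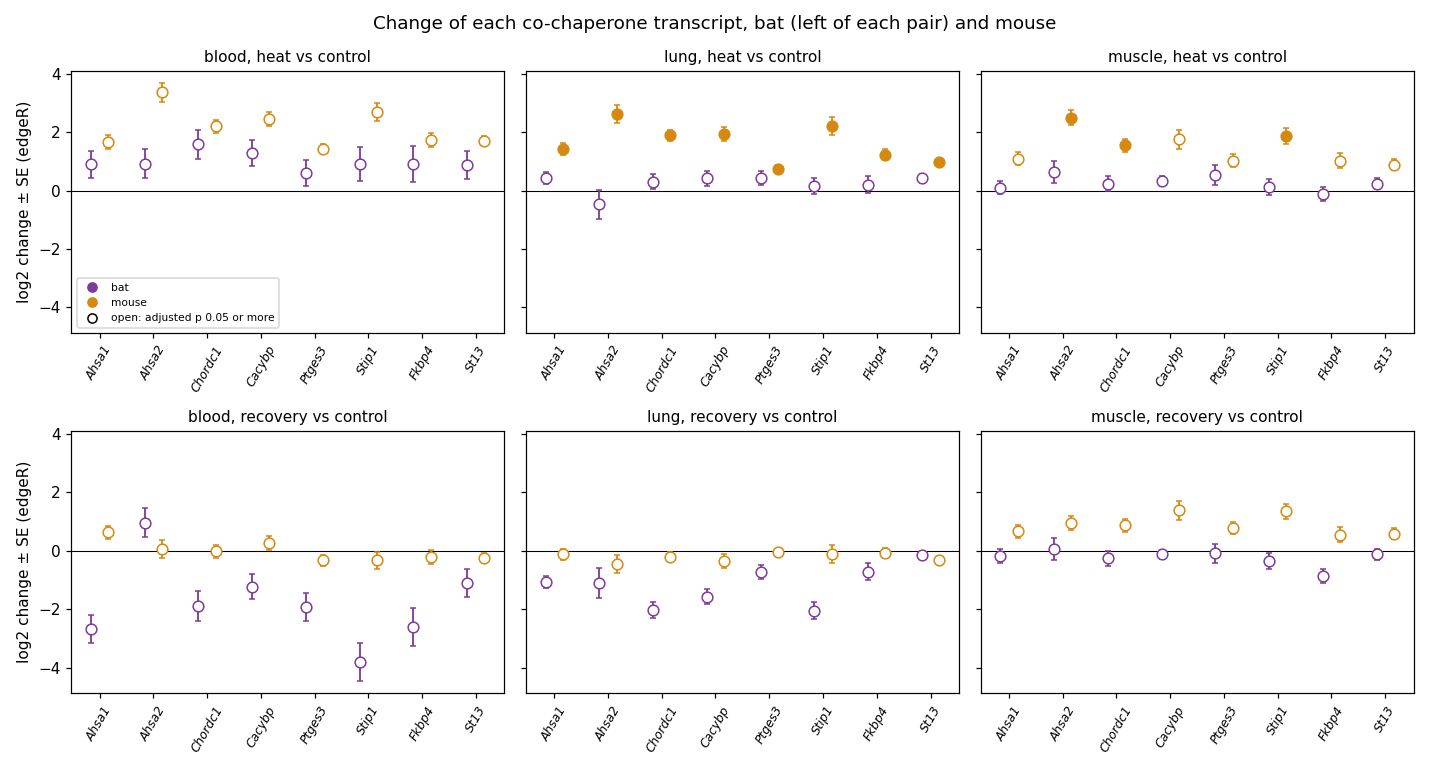
Log2 change ± SE of each co-chaperone, bat left of mouse in each pair, for heat against control (top) and recovery against control (bottom); filled points passed an edgeR adjusted p under 0.05 and open points did not. All mouse heat values lie above the bat value of the same gene and tissue, and in recovery most bat values in blood and lung lie below 0.

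At 4 h of recovery every called change of a member was a fall relative to heat, and in bat blood and lung most members also lay below all control libraries. In mouse lung all 8 fell relative to heat (5.84% of 19438 genes did), under every alternative tried. Summed leukocyte markers were 192 to 224 CPM in recovery lungs, within the range of heat lungs. Stip1 held 38.8, 48.4 and 48.0 CPM in recovery lungs, against the heat values above (log2 -2.33 ± 0.32, edgeR adjusted p = 0.00664), and Ahsa2 fell by 3.08 ± 0.31 on the log2 scale (edgeR adjusted p = 0.00222). In mouse blood 7 fell (2.7% of 15869 genes), among them Ahsa2 at -3.31 ± 0.33, Stip1 at -3.03 ± 0.31 and Ptges3 at -1.75 ± 0.18 (edgeR adjusted p = 0.027 for each), while Ahsa1 was at -1.02 ± 0.23 (edgeR adjusted p = 0.0694). No member was called there without blood control 1, control 3, recovery 1 or recovery 2. Ahsa1 had the biggest log2 difference from control in recovery blood, at 22.3 and 23.7 CPM, against 15.2 and 14.4 CPM in control blood (log2 0.64 ± 0.23, edgeR adjusted p = 0.544).

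In mouse muscle the mean recovery level of each member lay between its control and heat means. Of the 8 members Ahsa2 fell relative to heat (log2 -1.55 ± 0.25, edgeR adjusted p = 0.0465, 0.186% of 17746 genes), to 28.9, 48.0 and 51.2 CPM in recovery muscle, against 131, 90.8 and 153 CPM in heat muscle. This call was lost without any 1 of the muscle libraries except heat 2. Cacybp held 33.4, 70.8 and 84.3 CPM in recovery muscle, against 22.6, 21.8 and 27.7 CPM in control muscle, so all recovery libraries lay above the controls (log2 1.39 ± 0.34, edgeR adjusted p = 0.518). Stip1 held 66.1, 116 and 121 CPM in recovery muscle, against 42.7, 33.1 and 41.9 CPM in control muscle (log2 1.36 ± 0.26, edgeR adjusted p = 0.231). In 6 members the recovery libraries all lay above the controls (5.64% of all genes). Recovery 1 was the lowest of its group for all 8 members. EdgeR called 0 members in recovery against control (0.0676% of genes called either way), 7 had an unadjusted p under 0.05, DESeq2 called 3 higher, and edgeR called 2 without recovery 1. Summed Hspa1a and Hspa1b was 1354, 5072 and 3972 CPM in recovery muscle, against 10.1 to 18.4 CPM in control muscle, whereas in recovery lung it was 19.1 to 25.3 CPM.

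In bat lung 4 members fell between heat and recovery (0.11% of 19149 genes, 21 genes in all). Chordc1 held 102, 99.9 and 107 CPM in recovery lungs, against 293, 708 and 542 CPM in heat lungs (log2 -2.32 ± 0.27, edgeR adjusted p = 0.0236). Stip1 held 65.4, 83.0 and 85.2 CPM in recovery lungs, against 195, 461 and 422 CPM in heat lungs (log2 -2.21 ± 0.29, edgeR adjusted p = 0.0314). Recovery libraries were tightly grouped, and heat 1, although low, still lay above them. Cacybp fell (log2 -1.99 ± 0.27, edgeR adjusted p = 0.0337), as did Ahsa1 (log2 -1.49 ± 0.22, edgeR adjusted p = 0.0437), and 7 of the 8 members had recovery libraries all below the heat libraries (12.4% of all genes). Fkbp4 was the eighth, with 238, 215 and 220.0 CPM in recovery lungs, against 237, 575 and 455 CPM in heat lungs. The count of 4 was 0 without lung control 1, heat 3 or any 1 recovery library, 1 without control 2 or heat 2, and 5 without heat 1, when Ptges3 was also called (log2 -1.41, edgeR adjusted p = 0.00967).

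Set against control, recovery lungs of the bat held Chordc1 at 102, 99.9 and 107 CPM, against 388, 387 and 474 CPM in control lungs, a log2 difference of -2.01 ± 0.27 (edgeR adjusted p = 0.0504). For Stip1 they held 65.4, 83.0 and 85.2 CPM, against 312, 288 and 369.8 CPM in control lungs (log2 -2.05 ± 0.29, edgeR adjusted p = 0.0576). Cacybp held 37.5, 38.5 and 36.0 CPM in recovery lungs, against 109.6, 113 and 109 CPM in control lungs (log2 -1.57 ± 0.27, edgeR adjusted p = 0.106). The groups were thus far apart for each, and 6 members had recovery lungs all below control lungs (10.6% of all genes), but edgeR called none of the 8 (0.047% of genes called either way). Unadjusted p was under 0.05 for 6 members, DESeq2 called 4 lower, and edgeR called 2 without control 3, 3 without heat 1 and 1 without heat 2. St13, the HSP70 cofactor, was nearest to its control level, at 202, 176 and 201 CPM in recovery lungs, against 225, 222 and 194 CPM in control lungs (log2 -0.15 ± 0.14, edgeR adjusted p = 0.66).

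Bat blood held the biggest differences of all groups, and the widest spread. Stip1 held 23.7, 10.3 and 26.3 CPM in recovery blood, against 165, 777 and 639 CPM in heat blood (log2 -4.71 ± 0.69, edgeR adjusted p = 0.172) and 185, 234 and 423 CPM in control blood (log2 -3.80 ± 0.66, edgeR adjusted p = 0.366). Ahsa1 held 20.6, 20.7 and 22.7 CPM in recovery blood, against 97.8, 351 and 321 CPM in heat blood and 107, 132 and 174 CPM in control blood (log2 -2.69 ± 0.48 against control, edgeR adjusted p = 0.366). Fkbp4 held 22.1, 11.96 and 20.3 CPM in recovery blood, against 93.9, 63.6 and 175 CPM in control blood (log2 -2.61 ± 0.65, edgeR adjusted p = 0.668). Recovery libraries of 7 members lay below all heat libraries (8.52% of all genes) and below all control libraries (6.19% of all genes), with Ahsa2 as the exception. EdgeR called none of them, as it called 0.0% of 16038 genes lower than heat and 0.0% in either direction against control. Unadjusted p was under 0.05 for 7 members in each comparison, DESeq2 called 7 lower than heat and 4 lower than control, and edgeR called 2, Ahsa1 and Stip1, lower than heat without heat 1.

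Of the bat tissues, muscle had the smallest median differences. Chordc1 held 234, 234 and 208 CPM in recovery muscle, against 172, 371 and 411 CPM in heat muscle and 232, 309.9 and 267 CPM in control muscle. No member was called by edgeR against heat (0.00627% of 15950 genes called lower) or against control (2.67% of genes called either way), where the log2 differences ran from -0.28 to -0.74 and from -0.85 to 0.05. Unadjusted p was under 0.05 for 2 members against heat and 1 against control, and DESeq2 called 0 and 1. That 1 was Fkbp4, with 83.2, 59.5 and 71.1 CPM in recovery muscle, against 104, 132 and 151 CPM in control muscle, where the groups did not overlap (log2 -0.85 ± 0.23, edgeR adjusted p = 0.0738); edgeR called it without heat 1.

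In mouse blood and lung the members were back near their control level at recovery, with log2 differences of -0.33 to 0.64 in blood and -0.44 to -0.03 in lung. EdgeR called none of the 8 (0.0% of genes in blood and 0.0309% in lung, either way), with 1 unadjusted p under 0.05 in each tissue and 0 members called by DESeq2. Summed erythroid markers were 768110 to 913720 CPM in recovery blood, against 398740 to 570760 CPM in control blood, and summed leukocyte markers 805 to 862 CPM in recovery blood, against 894 to 902 CPM in control blood. In lung the leukocyte markers were 192 to 224 CPM at recovery, against 253 to 276 CPM in control. Each of these groups lay apart, and their part in the values was not tested. The bat minus mouse difference of the recovery change was tested in the joint fit. In lung it was -1.81 ± 0.38 for Chordc1 (edgeR adjusted p = 0.0131) and -1.94 ± 0.44 for Stip1 (edgeR adjusted p = 0.0163), 2 members called, with 2.41% of the paired genes called lower. In blood it was -3.33 ± 0.71 for Ahsa1 (edgeR adjusted p = 0.0181) and -3.48 ± 0.88 for Stip1 (edgeR adjusted p = 0.038), with 3.12% of the paired genes called lower. In muscle it was -1.71 ± 0.42 for Stip1 (edgeR adjusted p = 0.032), -1.50 ± 0.42 for Cacybp and -1.40 ± 0.40 for Fkbp4 (edgeR adjusted p = 0.041 for each), with 5.77% of the paired genes called lower. In each tissue the paired genes called lower were the named members alone, so these shares hold no other gene. Stip1 was the member that differed between the species in all 3 tissues at recovery. The lung count was 0 without mouse control 3, 1 without mouse control 2 or recovery 3, and 4 without bat heat 1. The blood count was 0 without bat recovery 1 or without any 1 of the mouse control and recovery libraries, and 1 without bat control 2, control 3, heat 3 or recovery 2 or either mouse heat library. The muscle count was 0 without any 1 of the bat control and recovery libraries, bat heat 2, mouse control 1 or 2, heat 1, or recovery 2 or 3, and 1 without bat heat 3. Heat and recovery share their control libraries, so these differences are not independent of those at heat.

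Whether the heat response of the co-chaperones differed between tissues was also tested. In the mouse the muscle minus lung difference of the heat change ran from -0.33 to 0.29 and the blood minus lung difference from 0.20 to 0.70 on the log2 scale, and edgeR called no member (0.0443% and 0.0575% of genes called either way). In the bat these ran from -0.40 to 0.99 and from 0.15 to 1.32, with no member called (0.0% of genes in each). Unadjusted p was under 0.05 for 0 and 2 members in the mouse and 0 and 1 in the bat, and DESeq2 called 0 in each. Each member had its highest fitted heat change in blood in both species, but no difference between tissues passed the test.

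The members varied together across libraries. With each tissue centred on its own mean, log2 levels of the 28 pairs of members correlated at 0.865 to 0.986 (median 0.958) over the 24 mouse libraries and at -0.063 to 0.979 (median 0.881) over the 27 bat libraries. The low bat values belong to pairs with Ahsa2. These are descriptions, since the libraries share conditions, depth and possibly animals. Among 6669 mouse genes with at least 5 CPM in each tissue, the non-members closest to the members' mean were Ccdc117 (r = 0.986), P4ha1 (0.981), Dnaja1 (0.977), Fxr1 (0.974) and Tmem33 (0.971). Among 7548 bat rows they were ENSG00000166226 (r = 0.974) and ENSG00000170606 (0.972), which the files do not pair with names.

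Other genes of the HSP90 pathway were counted in the mouse, the species in which they could be named. Of the HSP90 chaperones themselves, 2 of 4 rose in heat lung (3.14% of all genes did): the inducible Hsp90aa1 (log2 2.26, edgeR adjusted p = 0.0353) and the constitutive Hsp90ab1 (log2 1.30, edgeR adjusted p = 0.0071). Of 24 further co-chaperones 4 rose in heat lung, against the same 3.14% of all genes: Fkbp5, the immunophilin that counters Fkbp4 on steroid receptors (log2 2.06), the cyclophilin Ppid (0.48), and the folliculin-interacting Fnip1 (0.40) and Fnip2 (0.43). Their median log2 change was 0.08, against 1.66 for the 8 members and -0.01 for all genes. The members and lists were chosen with earlier results of these data known, so this contrast does not test the family. In heat muscle Hsp90aa1 rose (log2 3.64, edgeR adjusted p = 0.027, with 0.293% of all genes called higher) and none of the 24 further co-chaperones was called by edgeR (11 had an unadjusted p under 0.05). It averaged 551 CPM in recovery muscle and 596 CPM in heat muscle, against 47.7 CPM in control muscle. In blood none of 4 chaperones and none of 23 further co-chaperones were called by edgeR in heat against control (0.0% of all genes were called higher, and 2 and 5 had an unadjusted p under 0.05). In recovery against heat, 3 of 4 chaperones and 4 of 24 further co-chaperones fell in lung (5.84% of all genes did), and 0 of 4 and 4 of 23 fell in blood (2.7% of all genes).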

How the data were processed

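The authors deposited gene-level read counts without normalization, in 1 table for each species with a column for every library. The submitters' processing notes name STAR 2.7 for alignment, featureCounts for counting and, for all samples, the mouse build GRCm39. Which bat assembly, annotations and strand setting were used is not stated in those sources. Extraction used TRIzol and libraries came from a directional kit, per the labels' protocols.

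The test was edgeR 4.0.16 on R 4.3.3, with limma 3.58.1: filterByExpr (minimum count 10, minimum total 15), TMM scaling, the robust quasi-likelihood test and Benjamini-Hochberg adjustment over all genes tested, called under 0.05. Fits were made per species and tissue with all its libraries, so heat and recovery share their controls and 1 estimate of spread. The species difference was fitted over both species per tissue, with library sizes from the whole tables, on genes paired by the member list and by mouse identifiers in the bat table (651 pairs, of which 52 to 83 passed the filter). Tissue differences were fitted over all libraries of a species, and baseline tissues over its controls. DESeq2 1.42.0 was an alternative. The fit was tested on simulated data. Exon lengths and overlaps came from GENCODE M21.

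The 8 members and the pathway and marker lists were chosen with earlier results of these data known. Named genes were all members, called genes of 2 pathway lists, and the 5 genes per species closest to the members' mean (2 identifiers in the bat). The common biological coefficient of variation was 0.536, 0.343 and 0.295 in bat blood, lung and muscle and 0.263, 0.161 and 0.338 in mouse blood, lung and muscle. Within a group no library was a copy of another: differences between replicates exceeded counting error at least 11.6 times. Libraries of different groups were not compared in this way. Replicate numbers occur in all groups, but same-numbered libraries did not all deviate together, so they were not taken as pairs. Comparisons between tissues treat libraries as independent, although bat lung and muscle libraries of the same number correlated at 0.0878 to 0.355. Whether they share animals is not stated. Alternatives with the replicate number as a block are described below.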

Additional observations from a re-analysis of the deposited data

Results flagged for a closer look

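The change of a member differed between bat and mouse, by edgeR's test of the difference itself in the joint fit, in 15 cases. Adjusted p in that fit was taken over the paired genes alone. Of these calls, only those of Ahsa2 and Stip1 in lung at heat were kept under every alternative tried. The size for Ahsa2 in lung rests partly on bat lung control 3. At heat against control in lung, the bat minus mouse difference of the log2 change was -3.10 for Ahsa2, -2.07 for Stip1, -1.59 for Chordc1 and -1.53 for Cacybp. In muscle at heat it was -1.85 for Ahsa2, -1.75 for Stip1, -1.42 for Cacybp and -1.31 for Chordc1. At recovery against control it was -3.33 for Ahsa1 and -3.48 for Stip1 in blood, -1.81 for Chordc1 and -1.94 for Stip1 in lung, and -1.71 for Stip1, -1.50 for Cacybp and -1.40 for Fkbp4 in muscle. The bat rows carry mostly human gene identifiers and the mouse rows mouse symbols, and the part of unlike gene models in these differences was not tested.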

How the results depend on the processing

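Over 240 results for single members, 79 were called, and none of the 1195 alternatives of those turned a direction: 973 kept the call and 222 lost it. Counts of called members moved as follows, and the cause was not tested. No share of all genes is given for these alternatives, so their counts have no background. For mouse blood heat against control, none called became 8 with no filter on low counts, 4 with total count scaling (chosen after seeing the data) and 8 with DESeq2, and 0 to 8 when libraries were left out in turn. For mouse blood recovery against heat, 7 became 1 with only the 2 groups compared and 0 to 8 with libraries left out. For mouse muscle heat against control, 3 became 6 with no filter, 1 with total count scaling, 8 with DESeq2, 8 with only the 2 groups compared and 0 to 8 with libraries left out. For mouse muscle recovery against heat, 1 became 0 with total count scaling and with only the 2 groups compared, and was 0 to 1 with libraries left out. For mouse muscle recovery against control, none became 3 with DESeq2 and 0 to 2 with libraries left out. For bat blood recovery against heat, none became 2 with no filter, 7 with DESeq2 and 0 to 2 with libraries left out, and against control 4 with DESeq2. For bat lung recovery against heat, 4 became 0 to 5 with libraries left out. For bat lung recovery against control, none became 1 with relative log expression (RLE) size factors, 2 with no filter, 2 with total count scaling, 4 with DESeq2, 1 without the robust prior, 3 with only the 2 groups compared and 0 to 3 with libraries left out. For bat muscle recovery against control, none became 1 with DESeq2 and 0 to 1 with libraries left out. The bat minus mouse counts became 1 with DESeq2 in blood at heat, and with libraries left out 2 to 6 in lung and 0 to 6 in muscle at heat, and 0 to 2 in blood, 0 to 4 in lung and 0 to 4 in muscle at recovery. The control count for bat blood against muscle was 3 to 7 with libraries left out.

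With the replicate number as a block, 0 members were called in mouse blood recovery against heat, mouse muscle heat against control, mouse muscle recovery against heat, bat lung recovery against heat and the blood species difference at recovery, and no other count moved by over 1.5 times. A replicate block was not fitted for mouse blood against control, which shares only number 1. Correlations of same-numbered libraries within a tissue ran from -0.415 to 0.609 over both species. They were taken on deviations from each group mean, which cancel within a group, so own-number and other-number values are not independent. In mouse blood, with 2 libraries per group, they mirror each other: heat 1 correlated at 0.609 with control 1 and at -0.609 with control 3. As a hint from the data, bat heat libraries correlated across tissues at 0.0802 to 0.281 with their own number and at -0.194 to -0.012 with other numbers. The negative values with other numbers follow in part from the positive ones, because the deviations cancel, and add no separate evidence. Over all conditions, bat lung and muscle libraries correlated at 0.0878 to 0.355 with their own number and at -0.218 to 0.0297 with other numbers. With blood included, own-number values in bat recovery ran from -0.175 to 0.355.

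Reversed signs occurred for uncalled members. With total count scaling, mouse blood recovery against control was -0.56 for Ahsa2 and -0.37 for Cacybp, bat muscle heat against control was -0.00307 for Ahsa1 and bat muscle recovery against control was -0.0407 for Ahsa2. Bat control lung against muscle was -0.0436 for Fkbp4 with RLE size factors and with DESeq2. With libraries left out, mouse blood recovery against control ran from -0.19 to 0.15 for Chordc1, mouse lung recovery against control from -0.11 to 0.0536 for Ptges3, and bat blood recovery against heat from -0.19 to 0.26 for Ahsa2. Bat lung heat against control ran from -0.81 to 0.57 for Ahsa2, -0.0656 to 0.49 for Fkbp4 and -0.0477 to 0.45 for Stip1. Bat muscle heat against control ran from -0.18 to 0.31 for Ahsa1, -0.00581 to 0.52 for Chordc1, -0.26 to 0.10 for Fkbp4 and -0.18 to 0.41 for Stip1, and recovery against control from -0.20 to 0.64 for Ahsa2 and -0.25 to 0.0745 for Ptges3. The lung species difference at recovery ran from -1.0 to 0.37 for Ahsa2. Bat control lung against muscle ran from -0.29 to 1.24 for Ahsa2 and -0.13 to 0.18 for Fkbp4, and bat control blood against lung from -0.18 to 0.055 for Cacybp. Total count scaling moved the median log2 change of all genes by over 0.1 in 8 comparisons: mouse blood heat (-0.17, members 1.68), recovery against heat (-0.43, members -2.43) and recovery against control (-0.64, members -0.76), mouse muscle heat (-0.43, members 0.96), recovery against heat (0.27, members -0.27) and recovery against control (-0.15, members 0.65), and bat blood recovery against heat (0.21, members -2.80) and against control (0.28, members -1.63).

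Where a left-out library leaves 1 library in a group, that library is assumed to vary like the others. Mouse blood had 2 libraries per group, and bat Ahsa2 had 14 to 81 reads per blood library; their part in the missing calls was not tested.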

Other observations

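Levels of the inducible chaperone gene Hsp90aa1 and of its co-chaperone Stip1 at recovery can be set side by side in the mouse. In mouse blood Hsp90aa1 averaged 196 CPM at recovery and 288 CPM at heat, against 39.6 CPM in control, while Stip1 averaged 8.49 CPM at recovery, against 10.6 CPM in control. The log2 difference of Hsp90aa1 between recovery and control blood was 2.30 (edgeR adjusted p = 0.544), so it did not pass the test. In mouse lung Hsp90aa1 averaged 437 CPM at recovery, against 334 CPM in control (log2 0.39, edgeR adjusted p = 0.929).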
